A study of Mus musculus with 7 samples.

Results

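The proteasome genes were taken from the authors' deposited table as all rows with the biotype protein-coding and a symbol of Psma, Psmb, Psmc, Psmd, Psme, Psmf or Psmg followed by a digit. That rule gave 50 of 39179 genes, on 16 chromosomes. Of these, 31 encode constitutive subunits of the core and of the regulatory cap, and 5 encode the inducible set of Psmb8, Psmb9, Psmb10, Psme1 and Psme2. The other 14 are 7 assembly chaperones, the activators Psme3 and Psme4, the inhibitor Psmf1, the tissue-restricted subunits Psma8 and Psmb11, the Psme2 copy Psme2b, and Psmc3ip. Psmc3ip matches the symbol rule but encodes a partner of meiotic recombinases and no proteasome subunit.

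The proteasome is the barrel-shaped protease that degrades ubiquitin-tagged proteins. Its core, the 20S particle, stacks rings of alpha subunits, which gate the channel, around rings of beta subunits, 3 kinds of which carry the catalytic sites, and its 19S cap recognises ubiquitin and unfolds substrates with a ring of ATPases. Lymphocytes replace the catalytic subunits Psmb5, Psmb6 and Psmb7 in part by Psmb8, Psmb9 and Psmb10, which interferon also induces, to form the immunoproteasome, whose peptides feed MHC class I presentation. Psme1 and Psme2 form the interferon-inducible activator PA28, which opens the core without the 19S cap.

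Messenger RNA was sequenced in 7 libraries of regulatory T cells, CD4 T cells that express Foxp3 and hold immune responses in check, sorted as CD4+TCRb+CD25hi Foxp3+ cells from lymph nodes of C57BL/6 mice aged 3 weeks. The study asked what changes when Id2 and Id3, which block the E protein transcription factors, are deleted in these cells. Double-knockout (dKO) mice were Id2fl/flId3fl/flFoxp3cre and controls were Id2fl/+Id3fl/+Foxp3cre, so both groups carried Foxp3cre, which makes Cre in Foxp3-expressing cells, and controls kept 1 unfloxed allele of each gene. The series text writes the dKO with Foxp3Cre/Cre. Numbered libraries form a comparison of 2 control with 3 dKO libraries, and unnumbered libraries form a pair of 1 and 1. In the pair the genotype tags are the reverse of the titles and source names, so these samples are named by title only, as the libraries labelled control and dKO. The labels do not say which libraries came from separate mice, and p-values therefore reflect only how these libraries vary, which may be technical.

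Values of the numbered libraries are scaled counts, meaning reads scaled to each library's size factor that the authors averaged within a group, so they carry no SD. Genes are said to have risen or fallen in dKO only with an adjusted p under 0.05 in the authors' deposited table. Scaled counts summed to 3.90e+07 in control and 3.99e+07 in dKO. Size factors recovered from the steps between low values were 1.29 and 1.09 in control and 0.860 to 0.929 in dKO, a mean depth 1.32 times higher in the controls. Of 616 control reads from Kdm5d and Uty, which are Y-linked, 601 (97.6%) lay in the deeper control library. The groups differed as well, with Kdm5d at 112 scaled counts in controls and 2.56 in dKO, and Uty at 128 and 17.8. Id2 was at 783 scaled counts in controls and 61.1 in dKO and fell (log2 -3.68, adjusted p 1.48e-08), and Id3 had 1376 and 891 and did not pass (log2 -0.63, adjusted p 0.209), in the authors' deposited table. In the pair, Id2 was at 18.6 FPKM under the control label and 9.69 under the dKO label, and Id3 was at 160 and 221 FPKM, so Id3 ran against the label. The regulatory T cell genes were present, with Foxp3 at 13481 and 10942, Il2ra at 32376 and 32127 and Cd4 at 26431 and 32790 scaled counts in controls and dKO (authors' deposited table). Of the 6 regulatory T cell markers 1 rose and 0 fell there, beside 3.38% and 3.18% of all genes tested. Among protein-coding genes averaging at least 1000 scaled counts, 7.99% rose and 5.45% fell. With 6 markers these shares cannot be compared closely. The marker that rose was Ctla4, an inhibitory receptor, with 13258 and 26706 scaled counts (log2 1.01, adjusted p 4.71e-05, authors' deposited table). Ikzf2 did not pass (log2 -0.31, adjusted p 0.134, authors' deposited table).

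Most proteasome genes had a slightly higher mean in dKO regulatory T cells, and few of the differences passed the test. Of the 50 genes, 46 had a higher mean in dKO in the authors' deposited table, against 49.3% of all 31641 genes with a p and 55.8% of the 6519 protein-coding genes with a mean of 1000 or more. For the 50 genes, the median log2 fold change was 0.28, a fold of 1.21, with the middle 50% of genes between 0.22 and 0.33 in the authors' deposited table. The corresponding value was 0.03 over protein-coding genes with a mean of 1000 or more. By adjusted p 5 genes passed in the authors' deposited table, where 6.56% of all genes tested and 13.4% of protein-coding genes with a mean of 1000 or more did. The 4 that rose were Psma5, Psmb2, Psmd13 and Psmc3ip, beside 3.38% of all genes tested and 7.99% of protein-coding genes with a mean of 1000 or more. Psme2b was the 1 gene that fell, beside 3.18% and 5.45%. The share that rose is close to that of highly expressed genes at large. An unadjusted p under 0.05 came with a higher dKO mean in 30 of the 50, where 6.6% of all genes and 16.2% of the highly expressed ones had one, and with a lower dKO mean in 1, where 6.87% and 11.7% had one. Together the 50 genes held 0.652% of all scaled counts in controls and 0.768% in dKO. In bulk samples, more cells of a type and more RNA per cell cannot be told apart.

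**Figure D1:**
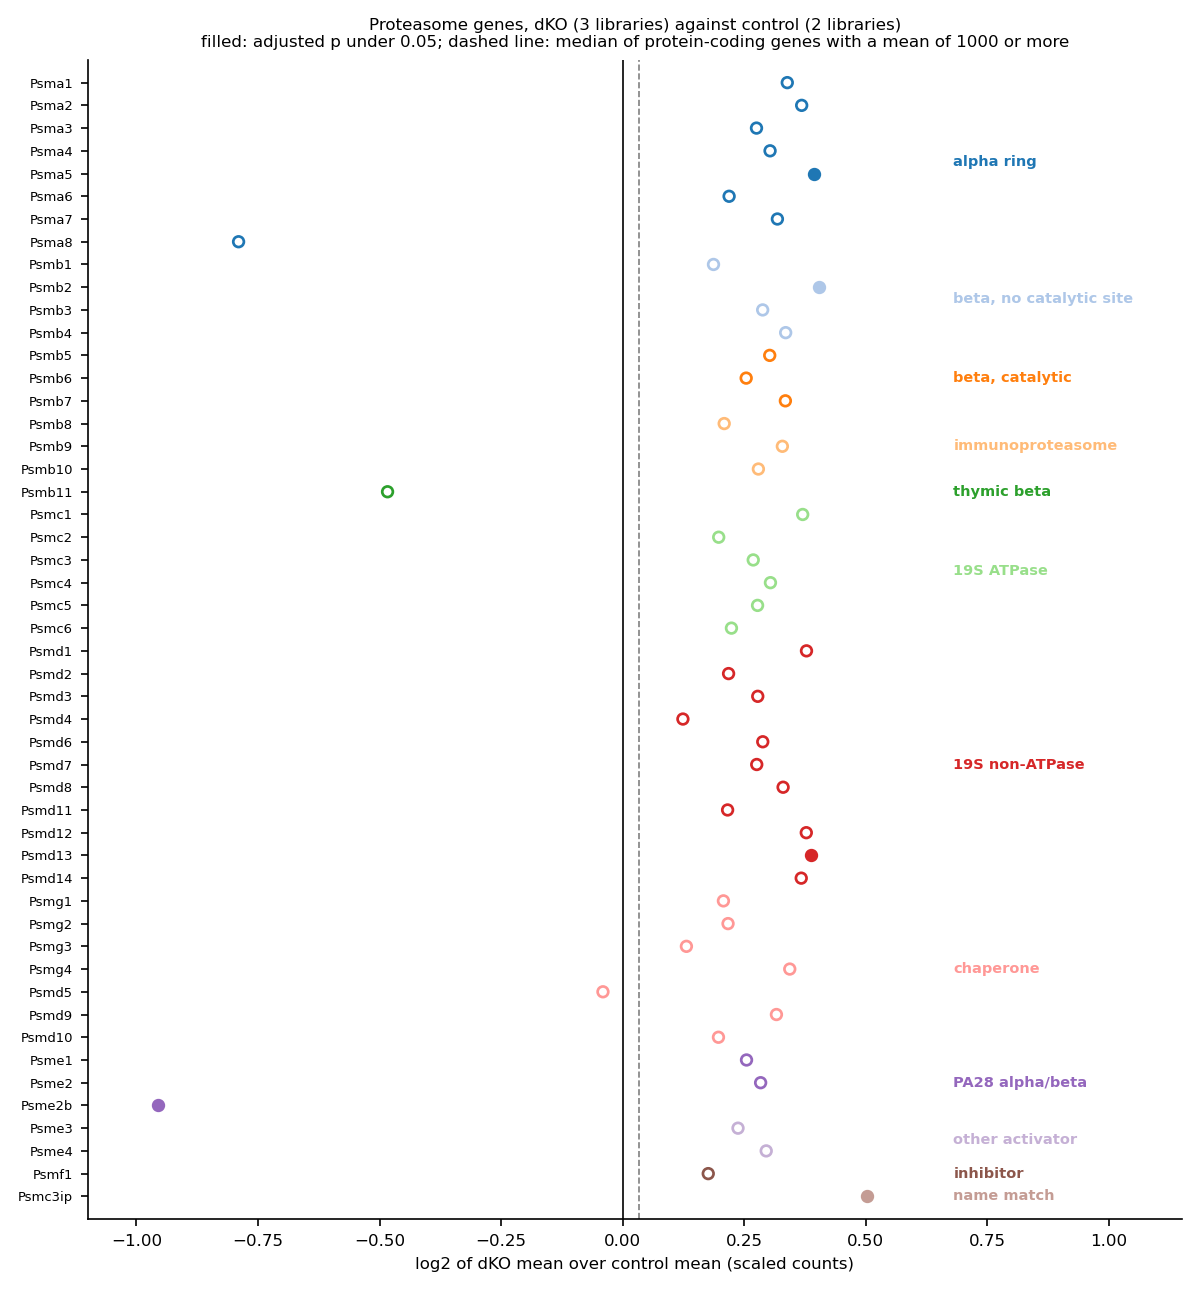
Log2 of the dKO mean over the control mean (x axis) for each of the 50 proteasome genes (y axis, coloured by role), from the authors' group means of 3 dKO and 2 control libraries. Filled points have an adjusted p under 0.05, and the dashed line is the median of 6519 protein-coding genes with a mean of 1000 or more; 46 genes lie right of 0, and Psme2b lies farthest left at -0.96.

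Among the subunits of the alpha ring, Psma1 to Psma7 all had a higher dKO mean, and 1 rose. Psma5 went from 5431 scaled counts in control to 7135 in dKO and rose (log2 0.39, adjusted p 0.0416, authors' deposited table). Psma2 had 7659 and 9885 scaled counts (log2 0.37, adjusted p 0.0655) and Psma4 had 6805 and 8395 (log2 0.30, adjusted p 0.209), and neither passed, per the authors' deposited table. The lowest of these 7 was Psma6 at a log2 fold change of 0.22. Psma8, a testis-specific alpha subunit, was near 0, with 8.33 scaled counts in controls and 4.82 in dKO. Its control reads could be assigned to libraries, 12 in the deeper and 8 in the shallower one.

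The beta subunits that carry no catalytic site are Psmb1, Psmb2, Psmb3 and Psmb4, and their log2 fold changes ran from 0.19 to 0.40 in the authors' deposited table. Psmb2 had 4391 scaled counts in controls and 5805 in dKO and rose (log2 0.40, adjusted p 0.0389), the largest difference among the constitutive subunits in the authors' deposited table. Psmb4 had 8582 and 10826 scaled counts (log2 0.34, adjusted p 0.112) and did not pass. Psmb1 had 8448 and 9616 (log2 0.19, adjusted p 0.753, authors' deposited table) and did not pass either.

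None of the 3 constitutive catalytic subunits passed the test, and their differences were close to one another. Psmb5, the chymotrypsin-like site, had 4611 scaled counts in controls and 5686 in dKO (log2 0.30, adjusted p 0.214). Psmb6, the caspase-like site, had 3765 and 4489 (log2 0.25, adjusted p 0.402). Psmb7, the trypsin-like site, had 4854 and 6121 (log2 0.33, adjusted p 0.126), all per the authors' deposited table.

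The immunoproteasome subunits that replace them also had higher dKO means, and none passed. Psmb8, which takes the place of Psmb5, had 20841 scaled counts in controls and 24084 in dKO (log2 0.21, adjusted p 0.894) and was the most highly counted proteasome gene in the authors' deposited table. Psmb9, which takes the place of Psmb6, had 8578 and 10770 (log2 0.33, adjusted p 0.223). Psmb10, which takes the place of Psmb7, had 5581 and 6771 (log2 0.28, adjusted p 0.361, authors' deposited table). Psmb11, the catalytic subunit of thymic epithelium, was near 0, with 18.97 scaled counts in controls and 13.6 in dKO. The recovered control reads of Psmb11 were 17 in the deeper and 27 in the shallower library, and the dKO mean lay between these libraries after scaling.

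The values of constitutive and inducible subunits overlapped in the numbered libraries. All 31 constitutive genes had a higher dKO mean in the authors' deposited table, and their log2 fold changes had a median of 0.30 and ran from 0.12 (Psmd4) to 0.40 (Psmb2). All 5 inducible genes did too, with a median of 0.28 and a range from 0.21 (Psmb8) to 0.33 (Psmb9), which lies inside the constitutive range. By the authors' DESeq test 3 of the 31 constitutive genes rose and 22 had an unadjusted p under 0.05. Of the 5 inducible genes 0 rose by that test and 4 had an unadjusted p under 0.05. For comparison, 7.99% of protein-coding genes with a mean of 1000 or more rose. An unadjusted p under 0.05 with a higher dKO mean was found in 16.2% of them. The classes were not tested against each other, and 5 inducible genes are too few to compare the shares that rose. Among protein-coding genes with a mean of 1000 or more, 25.6% had a log2 fold change within the constitutive range and 14.9% one above the constitutive median.

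The ratio of each inducible subunit to the one it replaces moved by less than 0.1 on the log2 scale. Per kb of exon, Psmb8 stood at 1.44 times Psmb5 in control and 1.35 times in dKO, a change of the ratio of -0.09 on the log2 scale. Psmb9 stood at 1.17 times Psmb6 in control and 1.23 times in dKO, a change of 0.07. Psmb10 stood at 1.10 and 1.06 times Psmb7, a change of -0.06. These ratios rest on group means without an SD and were not tested. The exon length in the authors' deposited table, which covers all annotated exons, sets the level of each ratio but not its change.

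**Figure D2:**
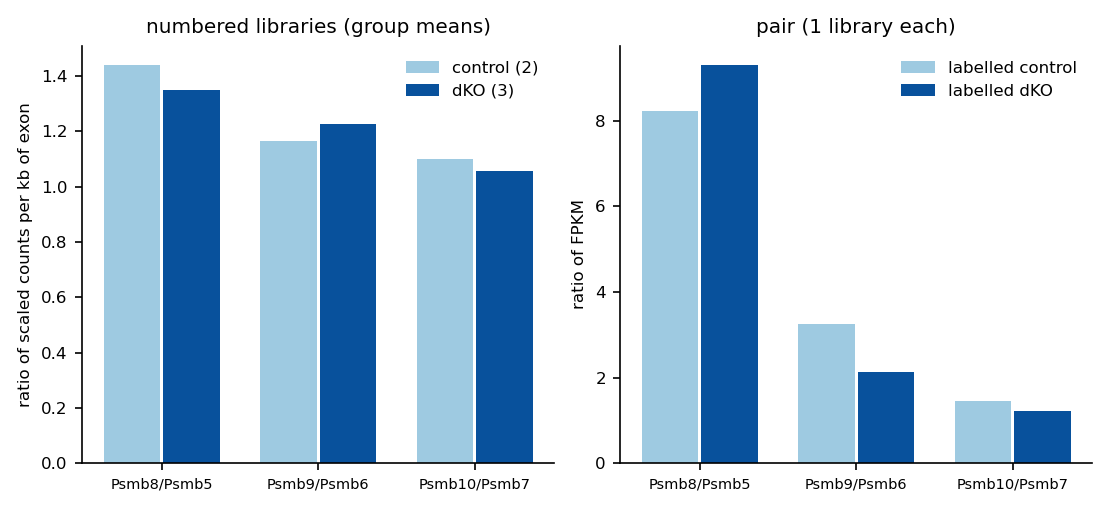
Ratio of each immunoproteasome subunit to the constitutive catalytic subunit it replaces (y axes start at 0), per kb of exon from group means of the numbered libraries (left) and from FPKM of 1 library each in the pair (right). Bars of control and dKO are close on the left, and Psmb9/Psmb6 differs most on the right, at 3.25 and 2.13. The units differ, so levels cannot be compared between left and right.

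In the pair the ratios moved by 0.18 to 0.61 in size on the log2 scale. Psmb8 stood at 8.22 times Psmb5 in FPKM under the control label and 9.29 times under the dKO label, a log2 change of 0.18. Psmb9 stood at 3.25 and 2.13 times Psmb6, a log2 change of -0.61, and Psmb10 at 1.45 and 1.23 times Psmb7, a log2 change of -0.24. The direction was opposite to that of the numbered libraries for Psmb8 and Psmb9 and the same for Psmb10 by title. With the labels of the pair exchanged the changes would be -0.18, 0.61 and 0.24, the same direction for Psmb8 and Psmb9 and the opposite one for Psmb10. With 1 library a group these differences have no replicate check. FPKM rests on RefSeq transcripts and the counts per kb on all annotated exons. The levels of the ratios therefore cannot be compared between the pair and the numbered libraries.

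Promoters are shown because constitutive proteasome genes are known to share control by Nfe2l1, which binds antioxidant response elements, whereas the inducible genes answer to interferon, in part through Irf1. RefSeq promoters, 250 bases before to 50 after the start (GRCm38.p6), matched 42 of the 50 genes with 45 promoters. Capitals mark the antioxidant response core TGACNNNGC in Psmb5 (chr14:54618023-54618142, minus strand) and Psmb6 (chr11:70525237-70525356, plus strand) and the gamma-activated site TTCNNNGAA in Psmb8 (chr17:34198088-34198117, plus strand), a motif of interferon gamma response. The Psmb5 and Psmb6 stretches lie upstream of the first exon, and the Psmb8 stretch lies within the first exon of a Psmb8 transcript in GENCODE, which begins upstream of the RefSeq start.
Psmb5: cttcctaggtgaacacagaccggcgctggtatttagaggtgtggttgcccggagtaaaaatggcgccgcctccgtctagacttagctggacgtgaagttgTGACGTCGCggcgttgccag
Psmb6: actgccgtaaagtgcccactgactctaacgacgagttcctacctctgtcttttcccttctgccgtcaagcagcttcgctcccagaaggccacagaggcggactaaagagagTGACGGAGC
Psmb8: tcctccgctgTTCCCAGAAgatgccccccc
The sequences show single matches and not a split between the classes: the antioxidant core was in 4 of 27 constitutive and 0 of 6 inducible promoters, and the gamma-activated site in 1 of 27 (Psmd2) and 1 of 6 (Psmb8), besides Psmg1. On both strands, the antioxidant core was in 13.3% of the proteasome promoters and 12.4% of all 32851 promoters, and the gamma-activated site was in 6.67% and 8.30%. The interferon response motif, a pair of GAAA with any 2 bases between them, was in 11.1% (Psmb3, Psmd4, Psme1, Psmd9 and Psmg4) against 3.44%. CCAAT, bound by NF-Y, was in 33.3% against 37.4%. The E-box CANNTG, the letters of E proteins and other factors, was in 27 of 45 proteasome promoters against 72.3% of all, and its form CAGCTG, which the E-box search also counts, was in 6.67% against 16.3%. A match describes letters in the window and no binding was measured.

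All 6 ATPases of the 19S cap, which unfold the substrate, had a higher dKO mean, and none passed. Psmc1 had 4603 scaled counts in controls and 5949 in dKO (log2 0.37, adjusted p 0.0716) and Psmc4 had 4670 and 5765 (log2 0.30, adjusted p 0.207) in the authors' deposited table. The most highly counted ATPase genes, Psmc3 (6317 and 7609, log2 0.27, adjusted p 0.34) and Psmc5 (5406 and 6551, log2 0.28, adjusted p 0.289), were alike in size in the authors' deposited table.

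Of the 11 non-ATPase subunits of the cap, 11 had a higher dKO mean and 1 rose. Psmd13, a subunit of the lid that removes ubiquitin, went from 5062 to 6621 scaled counts (log2 0.39, adjusted p 0.0494, authors' deposited table). Psmd1, a scaffold of the cap's base, had 5435 and 7063 (log2 0.38, adjusted p 0.0602) and did not pass. The most highly counted were Psmd2, which docks ubiquitin shuttle proteins, with 8496 and 9880 (log2 0.22, adjusted p 0.578), and Psmd4, a ubiquitin receptor, with 7588 and 8268 (log2 0.12, adjusted p 1), in the authors' deposited table. Constitutive core genes had a median log2 fold change of 0.31 and cap genes one of 0.28, and the difference was not tested.

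The assembly chaperones had lower counts than the subunits, and 0 of 7 passed in either direction by the authors' DESeq test. Of all genes tested 6.56% passed, and of protein-coding genes with a mean of 1000 or more 13.4% did. At an unadjusted p under 0.05, 2 chaperones were higher in dKO, beside 6.6% and 16.2%. With 7 genes these shares cannot be compared closely. Their median log2 fold change was 0.21 in the authors' deposited table. Psmg4, part of a chaperone of alpha ring assembly, had 672 scaled counts in controls and 853 in dKO (log2 0.34, adjusted p 0.203). Psmd9, a chaperone of the cap's base, had 986 and 1228 (log2 0.32, adjusted p 0.218) in the authors' deposited table. Psmd5, another base chaperone, was the exception in direction, with 1905 and 1852 (log2 -0.04, adjusted p 1, authors' deposited table). Psmg2, a further alpha ring chaperone, had 1309 and 1521 (log2 0.22, adjusted p 0.674) in that table.

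Because these genes have fewer reads, the reads of each control library could be recovered from the deposited mean for 11 proteasome genes with a control mean of 300 to 3000. Psmg4 had 679 scaled counts in the deeper and 666 in the shallower control library against a dKO mean of 853. Psmd9 had 910 and 1063 against 1228, and Psmg2 had 1331 and 1286 against 1521. Psmd5 had 1902 and 1908 against 1852, so its dKO mean lay just below both. In these 11 genes the dKO mean lay above both control libraries in 9, beside 40.7% of 6255 genes treated alike, and below both in 2 (Psme2b and Psmd5), beside 41.3%. The gap between the control libraries had a median of 0.06 on the log2 scale and reached 0.31 in Psmc3ip. Most of these genes were recovered only by allowing no more than a 1.6-fold gap, so a larger gap could not appear in them. Psmc3ip had 359 and 445 scaled counts in the control libraries against a dKO mean of 570, and it rose (log2 0.50, adjusted p 0.0277, authors' deposited table). Its log2 fold change was 0.67 against the deeper control library alone and 0.36 against the shallower one alone. No constitutive or inducible subunit could be split this way, and the 3 dKO libraries could not be split for any gene.

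**Figure D3:**
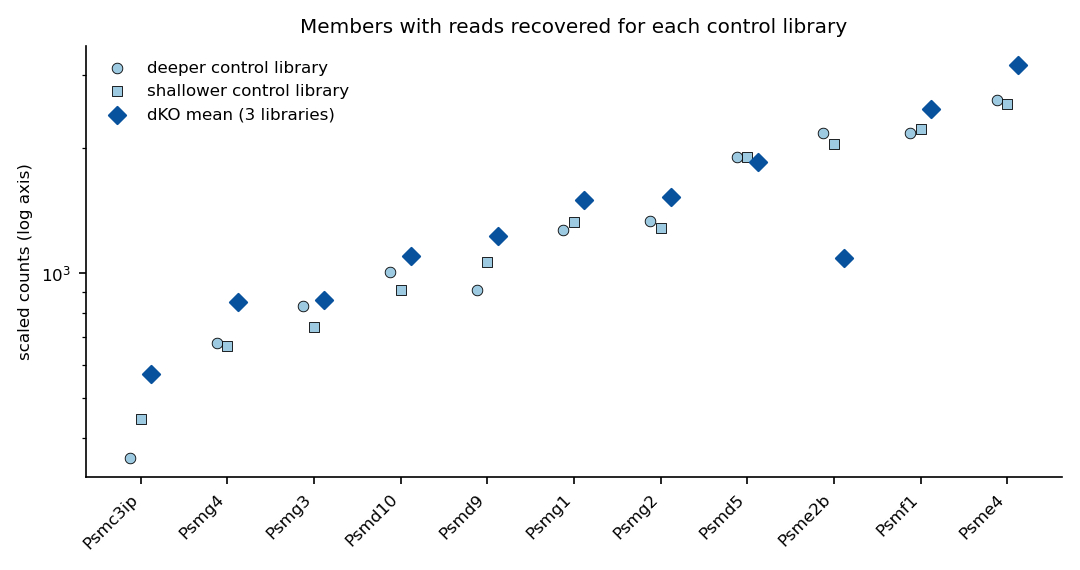
Scaled counts (y axis, log scale) of the 11 genes with recovered reads and a control mean of 300 to 3000, as the deeper control library (circles), the shallower control library (squares) and the authors' mean of 3 dKO libraries (diamonds). The diamond lies above both control libraries in 9 genes, and Psme2b at 1088 lies far below its control values of 2179 and 2041.

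Of the activators and the inhibitor, Psme2b alone passed the test, and the other 5 had a higher dKO mean. Psme1 had 16804 scaled counts in controls and 20047 in dKO (log2 0.25, adjusted p 0.355), and Psme2 had 9386 and 11424 (log2 0.28, adjusted p 0.251), in the authors' deposited table. Psme3, the nuclear relative of PA28, had 7789 and 9180 (log2 0.24, adjusted p 0.472). Psme4, the activator PA200, had 2581 and 3167 (log2 0.30, adjusted p 0.267), with 2611 and 2552 in the control libraries. Psmf1, a proteasome regulator first described as an inhibitor, had 2195 and 2479 (log2 0.18, adjusted p 0.845, authors' deposited table), with 2168 and 2221 in the control libraries.

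Psme2b went the other way and fell. It had 2179 scaled counts in the deeper and 2041 in the shallower control library against a dKO mean of 1088, and in the authors' deposited table it fell by 0.96 on the log2 scale with an adjusted p of 3.43e-10. Against each control library alone the log2 fold change was -1.002 and -0.91. Psme2b is a copy of Psme2 on chromosome 11 (48945354 to 48946190, minus strand, GRCm38), and its coding sequence of 717 bases is 99.3% identical to that of Psme2, with 5 mismatches and no gaps. The stretch of bases 484 to 543 of the coding sequence, counted from the start codon in the GENCODE transcripts, is shown because it holds 3 of the 5 differences, in capitals.
Psme2: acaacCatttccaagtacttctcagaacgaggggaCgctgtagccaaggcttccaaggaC
Psme2b: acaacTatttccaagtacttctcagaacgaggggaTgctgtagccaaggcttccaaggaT
Of the 50-base words in the Psme2b transcript, 68.7% also occur in Psme2, so how reads were shared between them depends on the authors' counting, and both values are uncertain. Summed, Psme2 and Psme2b had 11496 scaled counts in controls and 12512 in dKO, which is 0.12 on the log2 scale in place of the 0.28 of Psme2 alone.

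Psme2b lies in a cluster of interferon-inducible GTPase genes. These neighbours were chosen after the values were seen. Within 150 kb, 10 protein-coding genes had a mean of 100 or more, of which 8 had a lower dKO mean, with a median log2 fold change of -0.28, where 2883 of 6519 protein-coding genes with a mean of 1000 or more had a lower one. Trim41 and Gm12184 were level, at 0.00 and 0.01 on the log2 scale. The 2 that fell, beside 5.45% of highly expressed protein-coding genes, were 9930111J21Rik1, with 2864 and 1527 scaled counts (log2 -0.91, adjusted p 1.23e-09), and 9930111J21Rik2, with 11015 and 5256 (log2 -1.07, adjusted p 1.17e-14), in the authors' deposited table. 9930111J21Rik1 shares 41 bases with Psme2b on the same strand, and Psme2b lies wholly within Gm12185, with 466 and 394 scaled counts (log2 -0.24, adjusted p 1, authors' deposited table). The GTPase genes Irgm1 (log2 -0.49, adjusted p 0.191), Tgtp2 (log2 -0.50, adjusted p 0.568), Tgtp1 (log2 -0.32) and Ifi47 (log2 -0.12) did not pass (authors' deposited table). Whether reads of the overlapping genes entered the Psme2b count was not tested.

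**Figure D4:**
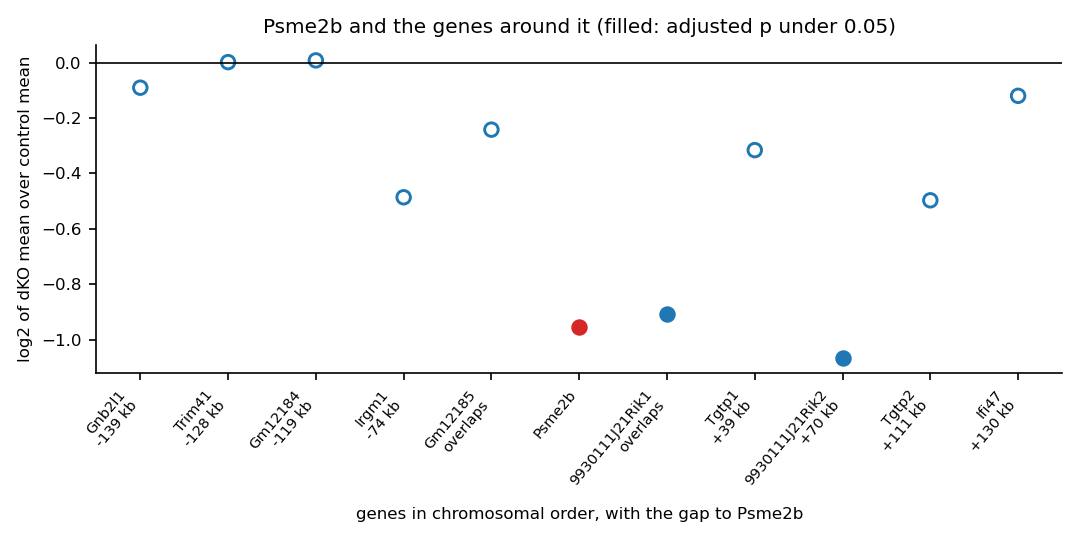
Log2 of the dKO mean over the control mean (y axis) for Psme2b (red) and the 10 protein-coding genes around it with a mean of 100 or more, in chromosomal order with the gap to Psme2b in kb (x axis). Filled points have an adjusted p under 0.05: Psme2b, 9930111J21Rik1 and 9930111J21Rik2 lie at -0.96, -0.91 and -1.07.

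In the pair, most proteasome genes were higher in the library labelled dKO. The direction rests on its titles: with the labels exchanged, as its genotype tags have them, 43 of the 47 genes described next would be lower in dKO and 4 higher. Of the 50 genes 49 are listed in the pair, and 47 had 5 FPKM or more in at least 1 library. On the log2(FPKM + 1) scale, which understates the change of low genes, 43 of the 47 were higher in the library labelled dKO, against 50.9% of 8681 genes. At least 1.2 times higher were 30 of 47, beside 24.8% of all genes, and at least 1.2 times lower were 0 of 47, beside 25.3%. The median log2 ratio was 0.34, against 0.01 over all genes and 0.06 over genes with 40 FPKM or more. Constitutive genes had a median of 0.39 with 30 of 31 higher, and 22 of 31 were at least 1.2 times higher. Inducible genes had a median of 0.19 with 4 of 5 higher, and 0 of 5 were at least 1.2 times higher. These counts compare 1 library with another and have no replicate check.

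Psmb8 had 655 FPKM with the control label and 746 with the dKO label, the highest of all proteasome genes in both. Psmb9 had 409 and 376 FPKM, a log2 ratio of -0.12, and is the one inducible gene that was lower. Psmb10 had 179 and 211 FPKM, Psme1 had 524 and 602, and Psme2 had 65.2 and 72.1. Among the constitutive catalytic genes, Psmb5 was level at 79.8 and 80.4 FPKM, whereas Psmb6 had 126 and 177 and Psmb7 had 123 and 171. The alpha ring showed the largest median, 0.51 over 7 genes, with Psma2 at 172 and 271 FPKM. Psma3 was low at 3.51 and 6.24 FPKM although its scaled counts in the numbered libraries, 3551 and 4297, were not, and Psme2b is not listed in the pair. Psma5 (27.6 and 39.6 FPKM), Psmb2 (229 and 293) and Psmd13 (102 and 134), which rose in the numbered libraries, were higher in the library labelled dKO as well. By title, 43 of 47 genes were higher both in dKO of the numbered libraries and in the library labelled dKO, 3 (Psmd4, Psmg3 and Psmb9) were higher in the numbered libraries and lower in the pair, and 1 (Psmd5) was lower in both. With the labels exchanged, 3 of 47 would share the direction of the numbered libraries.

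**Figure D5:**
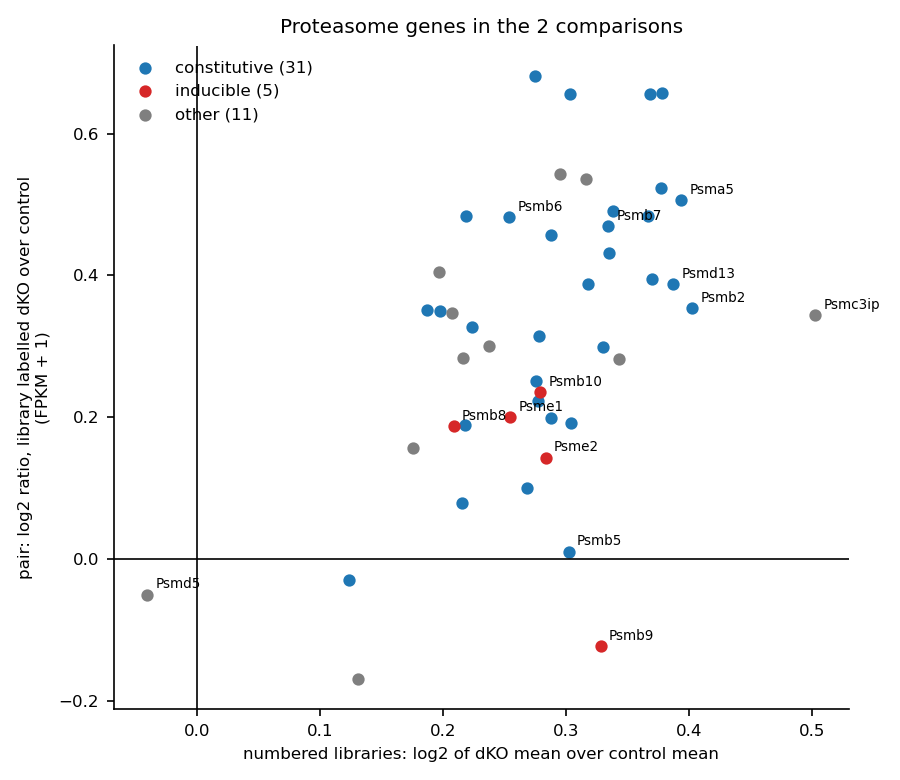
Log2 of the dKO mean over the control mean in the numbered libraries (x axis) against the log2 ratio of FPKM + 1 in the pair (y axis) for the 47 genes with 5 FPKM or more, coloured as constitutive (blue), inducible (red) or other (grey). Most points lie above 0 on both axes, and Psmb9 lies below 0 on the y axis at -0.12.

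Partners of the proteasome outside the symbol rule included 3 that rose. For such genes the test in the authors' deposited table called 3 of 25 higher and 0 lower, beside 7.99% and 5.45% of protein-coding genes with a mean of 1000 or more. A higher dKO mean was listed for 18 of the 25, and the median log2 fold change was 0.17. Rad23b, a shuttle that carries ubiquitinated proteins to the proteasome, had 5462 scaled counts in controls and 8196 in dKO (log2 0.59, adjusted p 0.0004). Ngly1, which removes N-glycans and is needed to activate Nfe2l1, had 1885 and 2715 (log2 0.53, adjusted p 0.0038), and Pomp, the chaperone that matures the core, had 3942 and 5176 (log2 0.39, adjusted p 0.0484), in the authors' deposited table. Uchl5, a deubiquitinase of the cap, had 1681 and 2163 (log2 0.36, adjusted p 0.11) and did not pass. Nfe2l1 itself, named after its value was seen, had 2989 and 2754 (log2 -0.12, adjusted p 1, authors' deposited table).

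Of 14 genes linked to MHC class I presentation, 9 had a higher and 5 a lower dKO mean. In the authors' deposited table the test called 1 of them higher and 0 lower, a share near the 7.99% of highly expressed protein-coding genes. At an unadjusted p under 0.05, 4 were higher and 0 lower, beside 16.2% and 11.7% of highly expressed protein-coding genes. The median log2 fold change was 0.16. Tapbpl, a peptide editor of MHC class I, had 3383 scaled counts in controls and 5540 in dKO and rose (log2 0.71, adjusted p 0.0125). The aminopeptidase gene Lap3 (log2 0.39, adjusted p 0.0729) and the folding chaperone genes Calr (log2 0.33, adjusted p 0.144) and Canx (log2 0.31, adjusted p 0.319) did not pass (authors' deposited table). Of 13 interferon signal factors 3 rose, beside 7.99% of highly expressed protein-coding genes, and 1 fell, beside 5.45%, with a median of -0.21. Irf8 rose by 1.63, Irf1, an activator of immunoproteasome genes, by 0.55 and the type I receptor gene Ifnar1 by 0.39 on the log2 scale, and the interferon gamma receptor gene Ifngr2 fell by 0.46, in the authors' deposited table.

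Markers of dividing cells also had higher dKO means, with a larger median difference than the proteasome genes. In the authors' deposited table the test called 10 of 12 such genes higher and 0 lower. Of protein-coding genes with a mean of 1000 or more, 7.99% and 5.45% were so called. The 12 genes had a median log2 fold change of 1.02. The mitotic genes Plk1, Birc5, Ccnb2 and Aurkb had log2 fold changes of 1.068, 1.003, 0.97 and 1.04 in the authors' deposited table. Among other cell types, 0 of 6 B cell and 0 of 5 CD8 T cell and NK markers passed by the authors' DESeq test, with 0 and 0 at an unadjusted p under 0.05. All 5 plasma cell markers had a higher dKO mean, and the median log2 fold change was 0.77. An unadjusted p under 0.05 with a higher dKO mean was found in 4 of the 5 (authors' deposited table). It was found in 6.6% of all genes tested and 16.2% of highly expressed protein-coding genes. Of the 5 markers 1 rose, beside 3.38% of all genes tested: Prdm1 (log2 0.80, adjusted p 0.0124), which activated regulatory T cells also express. Of 9 myeloid markers 1 fell, beside 3.18% of all genes tested: Xcr1, from 47.0 to 13.3 scaled counts. At an unadjusted p under 0.05, 2 myeloid markers were lower, beside 6.87% of all genes tested (authors' deposited table). The summed scaled counts were 988 and 1077 for B cell, 11612 and 17991 for plasma cell, 278 and 238 for myeloid and 841 and 898 for CD8 T cell and NK markers, in controls and dKO. Irf4 (6590 and 9389), Xbp1 (3750 and 6388) and Prdm1 (1179 and 2053) made up most of the plasma cell sum. The other plasma cell markers were low, Igj with 70.3 and 133 and Sdc1 with 23.4 and 28.0. Most of the B cell sum was Cd79b, with 894 and 1006, followed by Cd79a with 71.2 and 51.1, whereas Ms4a1 and Pax5 were each under 10 scaled counts in both groups. Of the CD8 T cell and NK markers, Cd8b1 had 663 and 687, Eomes 90.7 and 119, Klrb1c 69.7 and 64.7, Cd8a 16.9 and 26.7 and Ncr1 0.777 and 0.754. Among myeloid markers Clec9a was at 0 in controls. The part of dividing cells, of other cell types and of the depth gap in the proteasome result was not tested. Nor was that of the Y-linked differences between control libraries and between the groups.

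Some values are limited by shared sequence or position. Of the 50 genes, 22 overlap another gene, among them Psma5, Psmd13, Psmb5, Psmb7, Psmb8, Psmb9, Psmb10 and Psme1, and of the 3 subunits that rose, Psmb2 is the one that does not. More than 50% of the 50-base words of Psma5, Psmb3, Psmb5, Psme2 and Psme2b occur in another gene. Copies of 15 genes were found by symbol or description, and adding their scaled counts moved the log2 fold change by at most 0.16, in Psme2. That search missed other genes with shared words, so the value is no upper limit. Not summed were Gm8394, which holds 37.2% of the words of Psma5, Gm3375, with 49.4% of those of Psmb5, and AC114990.1, with 39.9% of those of Psmb3.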

How the data were processed

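Messenger RNA was sequenced on an Illumina HiSeq after dUTP strand marking, per the labels' protocols. Strand use in counting was not given in the sources used here. From the 2 control and 3 dKO numbered libraries the authors deposited signal columns that hold a group mean of scaled counts per Ensembl gene, with log2 fold changes, p-values and adjusted p-values. Per the submitters' processing notes, RSEM and DESeq, without versions, were used on mm10 (GRCm38). For the pair the authors deposited FPKM per RefSeq transcript, made with TopHat 1.4.0 and Cuffdiff, version given as 0.0.6, on mm9, per the submitters' processing notes. A count test had been planned, but group means allow none, so the authors' p-values were used. The authors also deposited a signed fold change per gene, a score column that was not used. The tables were analysed apart.

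Python 3.11.15, pandas 2.3.3 and numpy 2.4.6 were used. FPKM was summed per gene, with a pseudocount of 1 and a minimum of 5. Control reads were recovered as the whole numbers in 2 libraries that give the deposited mean, taken where 1 solution existed or 1 lay within a 1.6-fold gap. In simulated data, with a small and fixed spread between libraries, 99.2% of 2929 recovered genes of 3000 were right. The deposited data can spread more. Of genes with 1 solution, 90.1% lay within the 1.6-fold gap at control means of 100 to 400 and 97.1% at 400 to 1000. The simulated share may therefore be too high for these data. Levels between genes used the exon length of the deposited table. The members and gene lists were chosen with earlier results of these data known. Genes named are the inducible subunits and those they replace, in each other role group the 2 with the smallest adjusted p and the 2 with the highest mean, all that passed, those near 0, up to 4 per other list by adjusted p, and Id2 and Id3. Genes named besides these, such as the pair's exceptions, were chosen after their values were seen. Alternatives varied the threshold, the adjustment, the scaling, the copies, the overlaps and the pseudocount.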

Additional observations from a re-analysis of the deposited data

How the results depend on the processing

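The count of genes that rose depended on the threshold and on which genes entered. It was 4 at an adjusted p under 0.05, 0 at 0.01 and 9 at 0.1, 6 with p adjusted over protein-coding genes and 9 with p adjusted over genes with a mean of 10 or more. Without members that overlap another gene 1 rose and 0 fell. With only the constitutive and inducible subunits, an alternative chosen after seeing the data, 3 rose and 0 fell, because Psmc3ip and Psme2b are left out. No count under an alternative was set beside the share of all genes called at the same setting. A higher count there is therefore no result about proteasome genes. Under CPM scaling, which shifted every log2 fold change by -0.04, and centring, 46 of 50 genes stayed higher in dKO. The medians ranged from 0.27 to 0.30 for constitutive and from 0.24 to 0.28 for inducible subunits in the numbered libraries. In the pair they ranged from 0.35 to 0.39 and from 0.15 to 0.19 by title, and were -0.39 and -0.19 with its labels exchanged, an alternative also chosen after seeing the data. Leaving out either control library kept the direction in 12 of the 13 genes with recovered reads, and Psmb11, with few reads, had log2 fold changes of 0.04 and -0.87. No paired analysis was possible because the deposited table holds group means and no value per replicate.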
